A study of Mus musculus with 12 samples.

Results

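Genes of mitosis and chromosome segregation were examined in cultured astrocytes of SAMP8 mice, an inbred strain with accelerated senescence, and of SAMR1 mice, its senescence-resistant control. The set holds 48 genes named by symbol for their known roles in cell division. It was chosen with earlier results of these data known, so that its counts beside those of all genes are a description. An array probe named 43 of the 48, and 26 were detected (detection p under 0.05 on every array of at least 1 group) and tested among 8068 detected genes. Of these 26, 20 were lower in SAMP8 over both sera and none was higher, where 6.37% of all detected genes were lower and 8.69% higher. Detection of 9 of the 26 rested on SAMR1 alone, and of the 17 others 11 were lower. That count has no like share over all genes. Replicates 2 and 3 of SAMP8 with each serum also form an unlabelled array set without SAMR1 samples. With that set as a block in the fit, 13 of the 26 were lower over both sera (4.08% of all genes). In the main fit, which does not pair samples by replicate number, no detected gene, mitotic or other, changed with serum past the threshold.

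A dividing cell condenses its chromosomes, attaches them to a spindle of microtubules, separates the sister chromatids and cuts the cytoplasm. Cyclins with Cdk1 and the Polo and Aurora kinases drive entry and progress, the spindle checkpoint delays separation until the kinetochores are attached, and the anaphase-promoting complex then marks cyclin B and securin for destruction. Most of these genes are transcribed in late S phase, G2 and mitosis and are silent in resting cells, so that their transcripts are widely read as a mark of dividing cells. In RNA of a whole culture, fewer dividing cells and less transcript per dividing cell cannot be told apart.

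Astrocytes were grown from the cerebral cortex of 2-day-old pups and treated after 21 days in culture. For 48 h the medium held 10% heat-inactivated rat serum, from donors with free access to food (ad libitum, AL) or from calorie-restricted donors (CR), so that rat serum and mouse cells were common to all groups. Each strain was grown with each serum, which gives 4 groups of 3 samples (SAMR1-AL and SAMP8-AL, SAMR1-CR and SAMP8-CR), and the labels do not say which pups or culture days the samples came from, so that the p-values measure the spread between these samples. The submitters describe the cultures as mostly astrocytes with a minor share of microglia, and transcripts of both were detected: Slc1a3, the astrocyte glutamate transporter, lay between 4.91 and 6.04 and C1qb, a microglial complement chain, between 1.88 and 4.31. These values, like all levels below, are log2 intensities set per array to a mean of 0 over all probes and brought to a common spread. They compare samples for 1 gene and not 1 gene with another.

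Each array detected 41.2% to 46.7% of its probes. The lowest raw intensity was 7.01 to 8.19 on 8 arrays and 40.1 to 42.9 on the other 4, which are replicates 2 and 3 of SAMP8-AL and SAMP8-CR. No label names these array sets, all SAMR1 samples lie in the first, and values within it and with the set as a block are given beside the strain results. A single sample, SAMR1-CR replicate 3, stood apart from the other 5 SAMR1 samples: its level was below all of theirs for 24 of the 26 mitotic genes, where 19.4% of all detected genes showed this. In 3 genes that separate the strains, chosen after their values were seen, this sample lay closer to SAMR1 than to SAMP8. Gdpd5 was 2.05 there, 1.49 to 2.00 in the other SAMR1 samples and -0.73 to -0.57 in SAMP8. Reck was 0.17 there, -0.18 to 0.22 in the other SAMR1 samples and 1.92 to 2.19 in SAMP8. Emb was 0.97 there, below the 1.19 to 1.41 of the other SAMR1 samples, and -1.20 to -0.82 in SAMP8. Results are therefore given with and without SAMR1-CR replicate 3.

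In the plot of all detected mitotic genes by sample, the split by strain and the position of that sample can be seen together. The median level over the 26 genes was 0.05, 0.38 and 0.42 in SAMR1-AL, 0.32, 0.52 and -0.42 in SAMR1-CR, -0.39, -0.28 and -0.30 in SAMP8-AL, and -0.34, -0.36 and -0.33 in SAMP8-CR. All 6 SAMP8 samples thus lay within a narrow band below 5 of the 6 SAMR1 samples, and SAMR1-CR replicate 3 lay below all 6. Of the 26 genes, 15 to 21 were detected in the SAMP8 samples, 14 in SAMR1-CR replicate 3 and 24 to 26 in the other 5. Undetected values near the background therefore enter the SAMP8 medians, and the narrow band may in part reflect them.

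**Figure D1:**
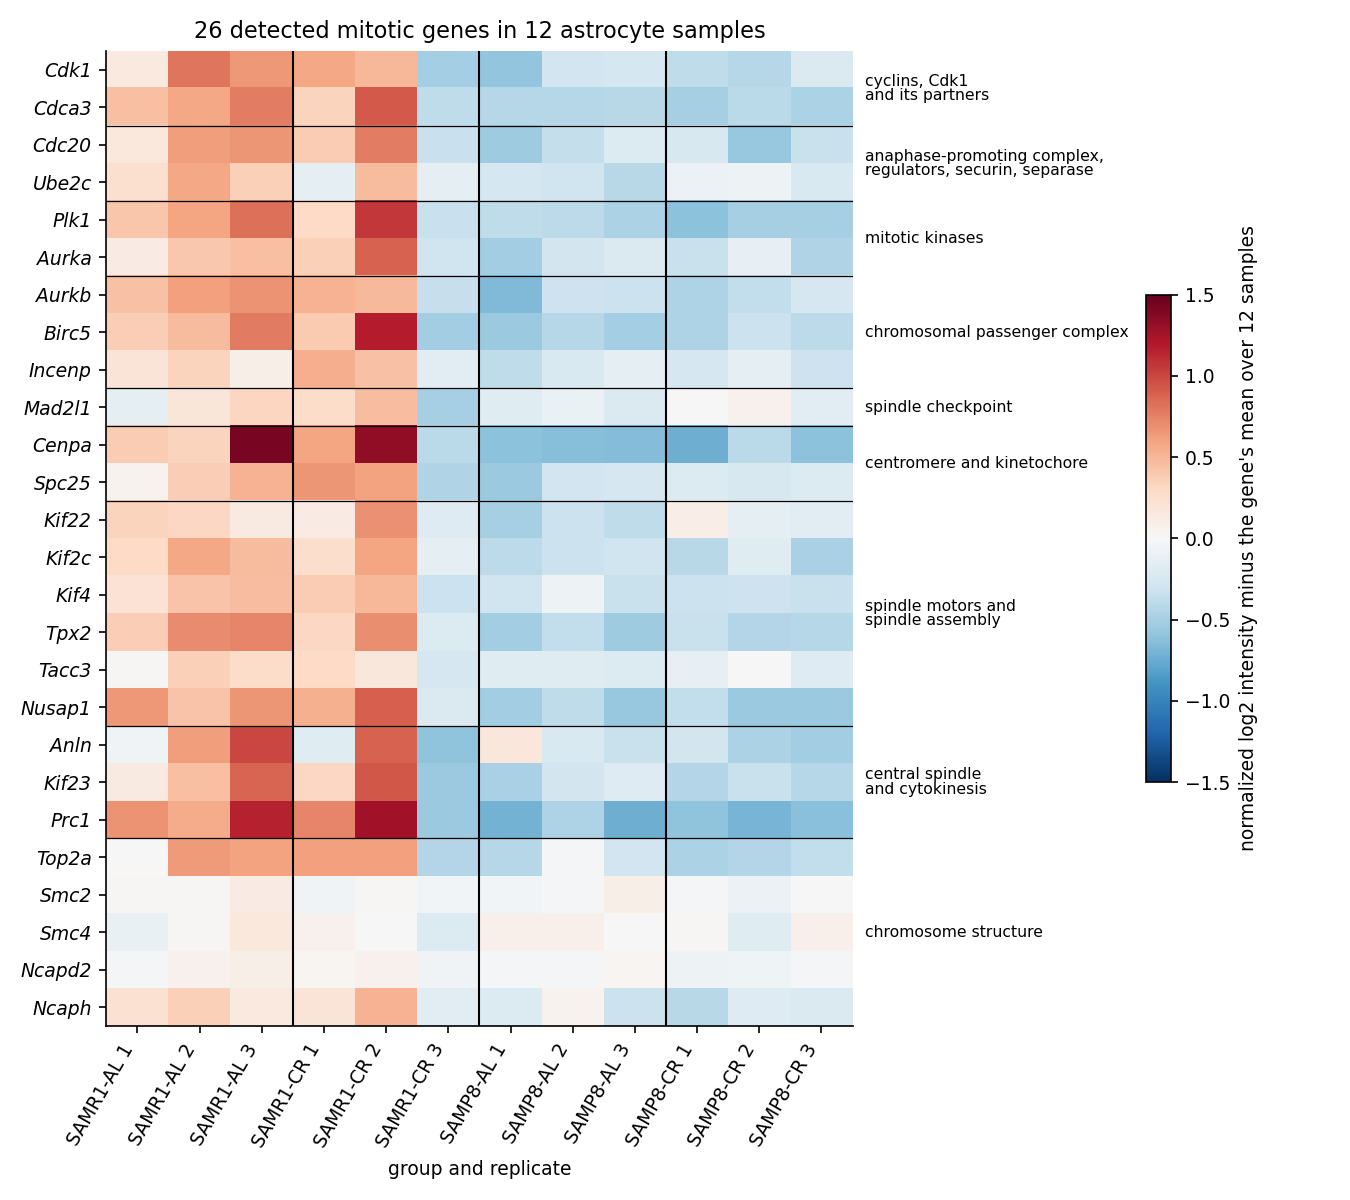
Level of each of the 26 detected mitotic genes (rows, grouped by role) in each of the 12 samples (columns), as normalized log2 intensity minus the gene's mean over the 12 samples, red above and blue below that mean. The SAMR1 columns are red for most rows except SAMR1-CR replicate 3, which resembles the SAMP8 columns, and Smc2, Smc4 and Ncapd2 are pale throughout.

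Promoters of mitotic genes are known for a pair of elements, the cell cycle genes homology region (CHR), bound by the DREAM and MuvB complexes, and CCAAT boxes, bound by NF-Y. The window from 250 bases before to 50 bases after the start (RefSeq, GRCm38.p6) was available for 42 of the 48 genes, as 44 windows of 300 bases. The letters of a CHR, TTTGAA or TTCGAA on either strand, stood in 33 of the 44 windows (75%) and in 19.2% of all 32851 windows. CCAAT, on either strand, stood in 33 of 44 (75%) and in 37.4% of all windows, and both together in 30 of 44 (68.2%) and in 7.52% of all. E2F letters (TTTGGCGC, TTTCGCGC, TTTGCCGC or TTTCCCGC, either strand) were in 2 of the 44 (4.55%), those of Cdk1 and Ncapd2, and in 2.26% of all windows. Matches of different motifs overlapped in 1 of the 44 windows. Among windows of DNA replication genes the order was the other way round, with CHR letters in 7 of 41 (17.1%) and E2F letters in 14 of 41 (34.1%). These are matches of letters and were not tested as binding sites.

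The windows of 5 genes are shown because the genes are among those described in full below, hold both elements and had the smallest p for strain. They are those of Prc1 at chr7:80294201-80294500 (plus strand), Plk1 at chr7:122159185-122159484 (plus strand), Cdca3 at chr6:124829926-124830225 (plus strand), Cenpa at chr5:30666636-30666935 (plus strand) and Cdc20 at chr4:118437294-118437593 (minus strand). Each is written 5′ to 3′ on the strand of the gene, with CHR and CCAAT letters (CCAAT also as ATTGG) in capitals. In all 5 the CHR stood within 31 bases of the start, downstream of a CCAAT.
Prc1: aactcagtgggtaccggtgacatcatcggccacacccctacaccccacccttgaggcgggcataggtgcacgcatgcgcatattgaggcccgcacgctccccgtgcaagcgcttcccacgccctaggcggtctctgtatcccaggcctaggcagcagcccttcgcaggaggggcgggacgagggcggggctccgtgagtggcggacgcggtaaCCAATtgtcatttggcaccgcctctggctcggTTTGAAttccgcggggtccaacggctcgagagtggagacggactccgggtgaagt
Plk1: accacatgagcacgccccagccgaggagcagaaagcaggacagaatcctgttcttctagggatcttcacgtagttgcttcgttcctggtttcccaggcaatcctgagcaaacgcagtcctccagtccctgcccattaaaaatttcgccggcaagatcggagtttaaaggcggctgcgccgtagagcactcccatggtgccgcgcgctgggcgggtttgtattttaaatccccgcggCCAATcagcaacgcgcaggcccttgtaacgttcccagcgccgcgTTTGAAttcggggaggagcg
Cdca3: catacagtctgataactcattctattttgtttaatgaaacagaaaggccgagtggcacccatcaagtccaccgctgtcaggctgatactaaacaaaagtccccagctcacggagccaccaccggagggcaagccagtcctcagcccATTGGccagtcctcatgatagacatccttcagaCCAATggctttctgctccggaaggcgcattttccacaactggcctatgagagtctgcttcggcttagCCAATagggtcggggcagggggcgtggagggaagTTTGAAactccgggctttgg
Cenpa: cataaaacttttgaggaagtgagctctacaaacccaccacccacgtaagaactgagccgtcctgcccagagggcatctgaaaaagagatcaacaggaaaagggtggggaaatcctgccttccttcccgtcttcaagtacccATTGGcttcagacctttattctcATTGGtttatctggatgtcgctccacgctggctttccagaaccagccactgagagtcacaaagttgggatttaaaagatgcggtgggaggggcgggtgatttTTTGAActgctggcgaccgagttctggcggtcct
Cdc20: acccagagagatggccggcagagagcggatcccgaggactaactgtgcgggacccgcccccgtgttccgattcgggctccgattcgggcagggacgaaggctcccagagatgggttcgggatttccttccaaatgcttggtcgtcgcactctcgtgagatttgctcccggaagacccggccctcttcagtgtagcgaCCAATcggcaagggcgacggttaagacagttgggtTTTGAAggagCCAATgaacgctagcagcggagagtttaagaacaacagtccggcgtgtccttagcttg

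With AL serum, 14 of the 26 detected mitotic genes were lower in SAMP8 than in SAMR1 and 0 higher (P8AL-R1AL, limma's moderated test, Benjamini-Hochberg adjusted p under 0.05 over all probes kept), where 3.79% of all detected genes were lower and 5.18% higher by the same test. The median log2 fold change was -0.70 over the 26 genes and 0.02 over all detected genes. With CR serum, 2 of 26 were lower, Kif2c and Nusap1, against 1.3% of all genes (1.47% higher), and the median was -0.56. Over both sera 20 of 26 were lower, against 6.37% of all genes (8.69% higher), with a median of -0.66. A further limit is that 9 of the 26 genes were detected only through a SAMR1 group, a rule that favours lower values in SAMP8. Of the 17 others, 7 were lower with AL serum, 1 with CR serum and 11 over both sera. Of the 14 genes detected on all 12 arrays, 7 were lower with AL serum, 1 with CR serum and 10 over both sera, with medians of -0.86, -0.65 and -0.72. For counts restricted in these ways, here and below, no share over all genes under the same rule is given. They therefore have no like comparison. With genes undetected in a SAMP8 group set at their bounds, the medians over the 26 were -0.66 with AL serum and -0.50 with CR serum.

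Both counts depended on single samples. With AL serum it was 8 without SAMR1-AL replicate 2 (1.77% of all genes lower), 7 without SAMR1-AL replicate 3 (2.55%), 6, 9 and 6 without SAMP8-AL replicates 1, 2 and 3 (1.5%, 2.19% and 1.47%), and 21 without SAMR1-CR replicate 3 (4.49%). With CR serum it was 0 or 1 without any 1 of SAMR1-AL replicate 2, SAMR1-CR replicates 1 and 2 or the 6 SAMP8 samples. Without SAMR1-CR replicate 3, 18 of the 26 genes were lower in SAMP8-CR than in SAMR1-CR, with a median of -0.86, and 23 over both sera (1.72% and 7.35% of all genes). That sample was singled out by the values of these same genes, so that higher counts without it follow from the choice and are a description only. The other 5 SAMR1 samples all lay above all 6 SAMP8 samples for 20 of the 26 genes (5.04% of all genes), and all 6 SAMR1 samples did so for 6 genes (3.27% of all genes), namely Cdca3, Plk1, Cenpa, Kif2c, Tpx2 and Nusap1. With the array set as a block 6 genes were lower with AL serum, 0 with CR serum and 13 over both sera (2.76%, 1.57% and 4.08% of all genes), and within the first array set, where SAMP8 has 1 sample per serum, 0, 0 and 2 (0.434%, 0.174% and 2.05%). The direction was the same there, with 25 of 26 genes lower over both sera and a median of -0.75. Since all SAMR1 samples lie in the first set, both settings give the same differences over both sera. They are therefore 1 result, which rests on 1 SAMP8 sample per serum.

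**Figure D2:**
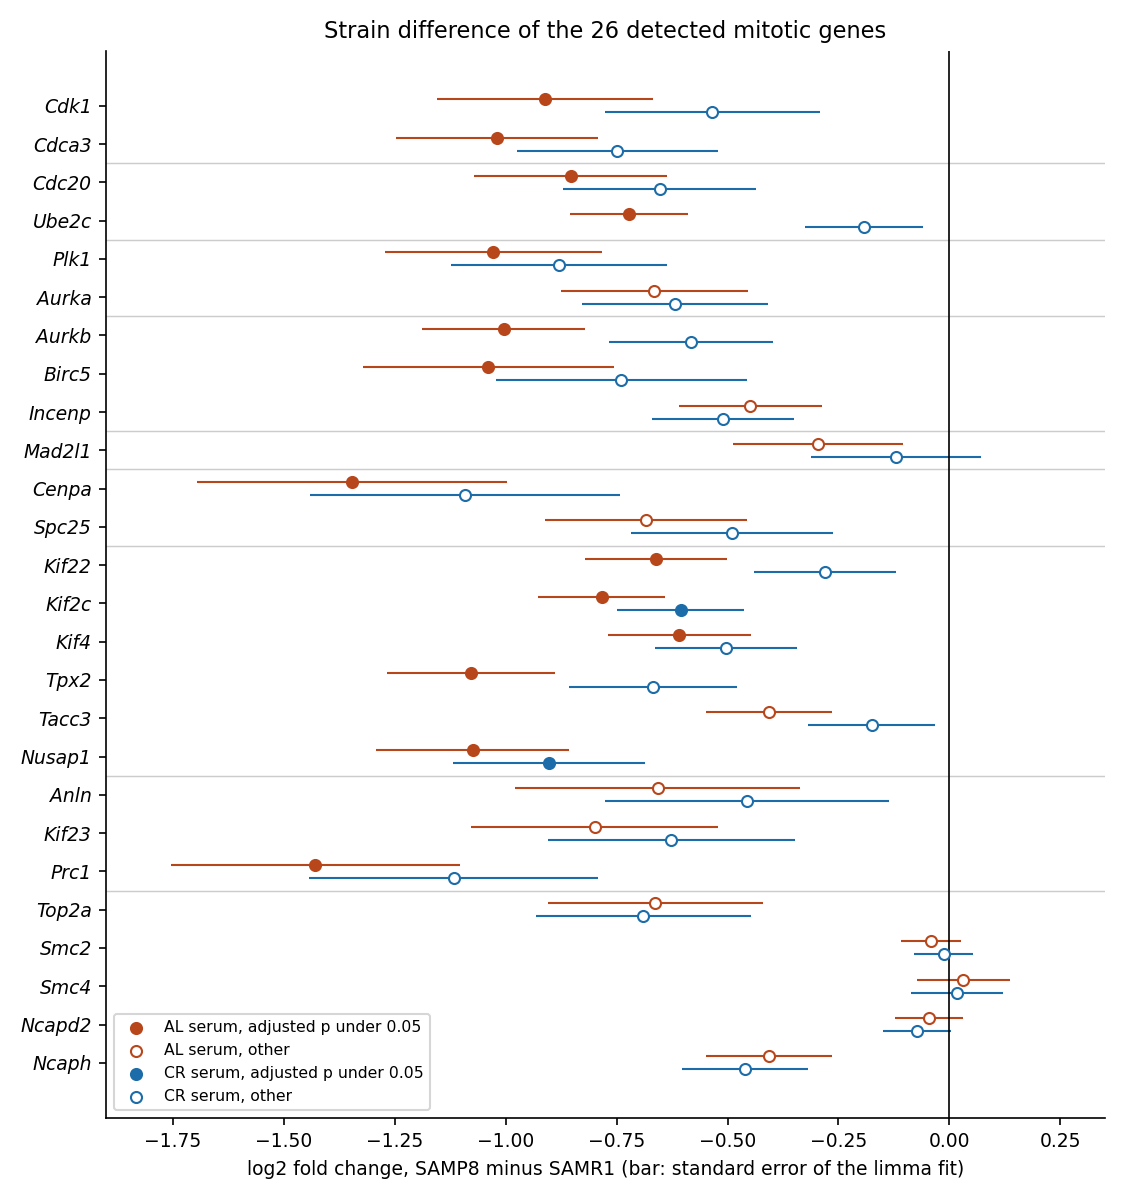
Log2 fold change of SAMP8 over SAMR1 for the 26 detected mitotic genes, with AL serum (orange) and CR serum (blue), bars giving the standard error of the limma fit and filled points an adjusted p under 0.05. All but Smc4 lie left of 0 with both sera, from -1.43 for Prc1 with AL serum, and the condensin genes Smc2, Smc4 and Ncapd2 lie near 0. Points of genes undetected in SAMP8 (Aurka, Kif2c and Ube2c among them) show measured values near the detection limit.

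Cyclins, Cdk1 and its partners were represented by Cdk1 and Cdca3, both lower in SAMP8 with AL serum. Beside the counts by role here and below, 3.79% of all genes were lower with AL serum, 1.3% with CR serum and 6.37% over both sera. Cdca3, an F-box-like protein that helps degrade the mitosis inhibitor Wee1, had levels of 0.60, 0.73 and 0.91 in SAMR1-AL, 0.48, 1.07 and -0.23 in SAMR1-CR, -0.27, -0.28 and -0.27 in SAMP8-AL, and -0.35, -0.26 and -0.32 in SAMP8-CR. The strains did not overlap with either serum, the third SAMR1-CR sample being the closest. It was 2.03-fold lower in SAMP8 with AL serum (log2 fold change -1.02 ± 0.23, SE, n = 3 per group, limma adjusted p = 0.0140) and 1.68-fold lower with CR serum (-0.75 ± 0.23, adjusted p = 0.103). Cdk1, the kinase that drives entry into mitosis, was 1.88-fold lower with AL serum (adjusted p = 0.0319) and differed by -0.53 ± 0.24 with CR serum (adjusted p = 0.296). No detected probe was available for the cyclins Ccna2 and Ccnb2 or for Cks2, a Cdk1 partner, and Ccnb1 is not analysed here.

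The regulators of the anaphase-promoting complex Cdc20 and Ube2c were both lower in SAMP8 with AL serum. Both passed the detection rule only through SAMR1, and Cdc20 was detected on 1 array of each SAMP8 group. Cdc20, the activator that turns the complex on at anaphase, measured -0.09, 0.38 and 0.41 in SAMR1-AL, 0.14, 0.52 and -0.58 in SAMR1-CR, -0.78, -0.61 and -0.46 in SAMP8-AL, and -0.49, -0.82 and -0.58 in SAMP8-CR. Its difference was -0.85 ± 0.22 on the log2 scale with AL serum (1.81-fold lower, limma adjusted p = 0.0263) and -0.65 ± 0.22 with CR serum (adjusted p = 0.140). Ube2c, the ubiquitin-conjugating enzyme of the complex, measured -0.49, -0.16 and -0.38 in SAMR1-AL, -0.89, -0.26 and -0.87 in SAMR1-CR, -1.0004, -1.04 and -1.15 in SAMP8-AL, and -0.82, -0.81 and -0.96 in SAMP8-CR. It was detected on no SAMP8 array, so that the AL difference is a bound, at least 1.15-fold lower in SAMP8 (adjusted p = 0.00536). Here and below, the p-value beside a bound tests the measured difference and not the bound, which has no test. The raw intensity of Ube2c ran from 60.05 to 138, near the detection limit. The 11 detected core subunits of the complex itself held 0 calls in either direction over both sera, with a median of 0.05, and the smallest p among them was that of Anapc13 (log2 fold change 0.33 ± 0.13, adjusted p = 0.0958).

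Both detected mitotic kinases were lower over both sera (6.37% of all genes), and Plk1 also with AL serum alone (3.79%). Plk1, the Polo kinase of centrosome maturation and cytokinesis, had levels of 0.54, 0.72 and 0.95 in SAMR1-AL, 0.42, 1.18 and -0.21 in SAMR1-CR, -0.26, -0.27 and -0.35 in SAMP8-AL, and -0.49, -0.38 and -0.38 in SAMP8-CR. No SAMR1 value fell into the SAMP8 range. It was 2.04-fold lower with AL serum (-1.03 ± 0.24, limma adjusted p = 0.0197) and 1.84-fold lower with CR serum (-0.88 ± 0.24, adjusted p = 0.0765), or 2.33-fold without SAMR1-CR replicate 3. Aurka, the Aurora kinase of the spindle poles, measured -0.39, -0.11 and -0.07 in SAMR1-AL, -0.16, 0.37 and -0.81 in SAMR1-CR, -1.04, -0.79 and -0.73 in SAMP8-AL, and -0.84, -0.64 and -0.97 in SAMP8-CR. Aurka passed the detection rule only through SAMR1 and was detected on no SAMP8 array. Its SAMP8 mean was at least 1.27-fold lower with AL serum (adjusted p = 0.0613) and at least 1.30-fold lower with CR serum (adjusted p = 0.150). Neither difference passed the threshold, and the groups overlapped with CR serum. Over both sera the adjusted p was 0.0101. Melk had no detected probe.

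The chromosomal passenger complex corrects wrong attachments of chromosomes to the spindle, and its 3 detected subunits were lower in SAMP8 over both sera. Aurkb and Birc5 passed the detection rule only through SAMR1. The 1 other was lower over both sera together but not called with either serum alone. Aurkb, its kinase, measured 0.19, 0.37 and 0.43 in SAMR1-AL, 0.28, 0.24 and -0.59 in SAMR1-CR, -0.90, -0.55 and -0.56 in SAMP8-AL, and -0.71, -0.61 and -0.49 in SAMP8-CR. With AL serum the groups were well apart (-1.0046 ± 0.18, 2.01-fold lower, limma adjusted p = 0.00516), and with CR serum they overlapped through replicate 3 (-0.58 ± 0.18, adjusted p = 0.118). Birc5 (survivin) had levels of 0.26, 0.37 and 0.67 in SAMR1-AL, 0.28, 1.07 and -0.63 in SAMR1-CR, -0.66, -0.54 and -0.63 in SAMP8-AL, and -0.58, -0.43 and -0.50 in SAMP8-CR. Birc5 was 2.06-fold lower with AL serum (-1.04 ± 0.28, adjusted p = 0.0351), and its second detected probe was 1.60-fold lower (adjusted p = 0.0161). Incenp, the scaffold of the complex, differed by -0.48 ± 0.11 over both sera (adjusted p = 0.0113). Cdca8 had no detected probe.

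The spindle checkpoint was represented by Mad2l1 alone, since Bub1, Bub1b and Ttk had no detected probe. Mad2l1, the inhibitor of Cdc20, measured -0.33, -0.02 and 0.12 in SAMR1-AL, 0.08, 0.26 and -0.70 in SAMR1-CR, -0.39, -0.31 and -0.42 in SAMP8-AL, and -0.21, -0.14 and -0.38 in SAMP8-CR. The strains overlapped with both sera, and the lowest sample was SAMR1-CR replicate 3. The difference over both sera was -0.21 ± 0.14 (limma adjusted p = 0.321).

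Of the centromere and kinetochore genes, Cenpa and Spc25 were detected and both were lower in SAMP8 over both sera. Cenpa, the histone H3 variant that marks the centromere, had the widest range of the 26 genes, 2.16 on the log2 scale. It measured 1.21, 1.17 and 2.26 in SAMR1-AL, 1.43, 2.16 and 0.43 in SAMR1-CR, 0.22, 0.19 and 0.19 in SAMP8-AL, and 0.10, 0.43 and 0.22 in SAMP8-CR. The SAMP8 values lay close together and the SAMR1 values were spread, the lowest SAMR1 value only just above the highest of SAMP8. Cenpa was 2.54-fold lower with AL serum (-1.35 ± 0.35, limma adjusted p = 0.0288) and 2.13-fold lower with CR serum (-1.09 ± 0.35, adjusted p = 0.122). Spc25, of the Ndc80 complex that binds microtubules, differed by -0.59 ± 0.16 over both sera (adjusted p = 0.0240). Its partners Ndc80 and Nuf2 and the motor Cenpe had no detected probe, and Cenpf is not analysed here.

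**Figure D3:**
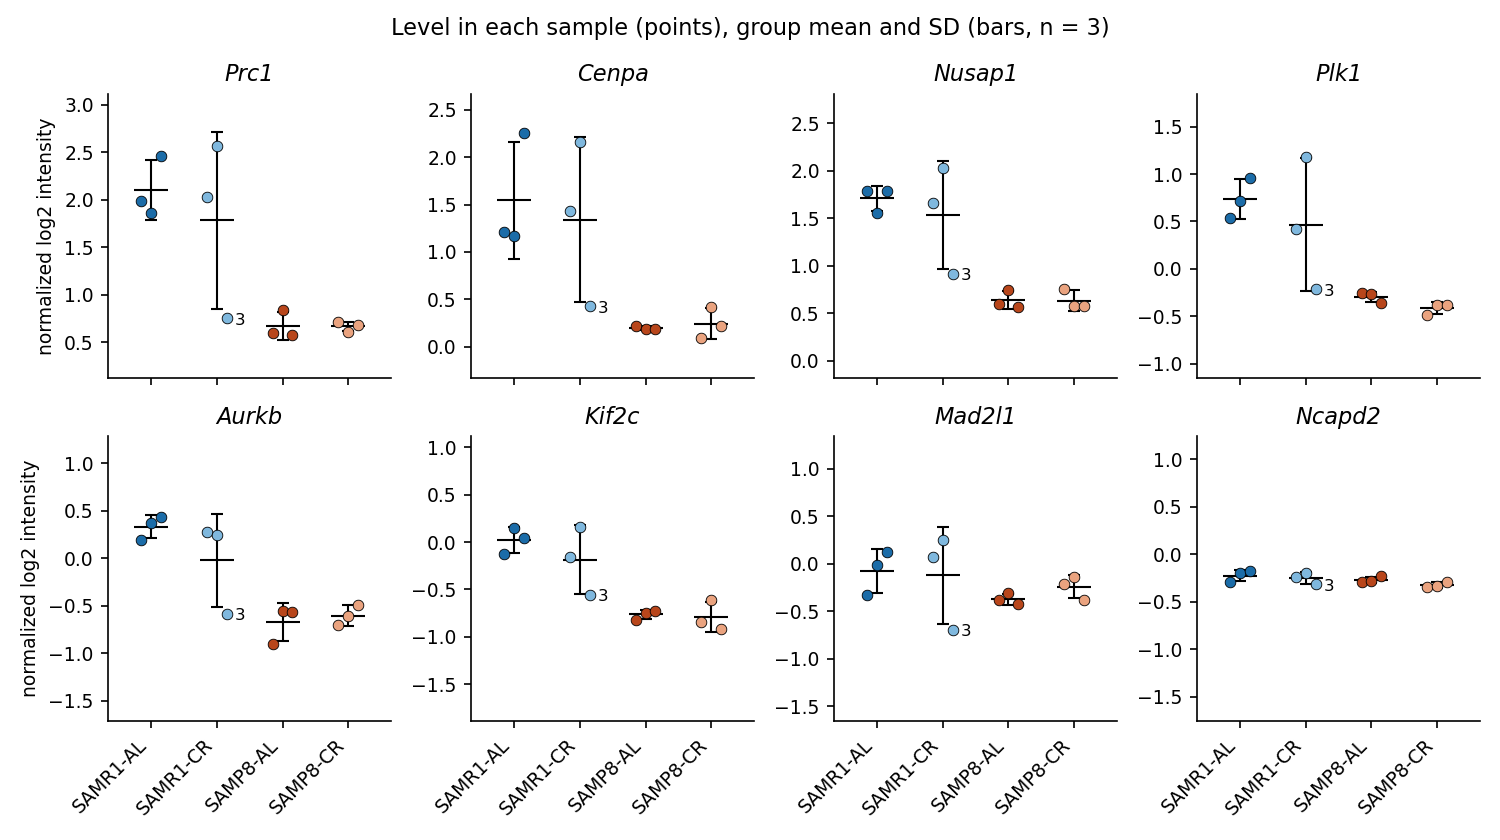
Normalized log2 intensity of 8 mitotic genes in each sample (points), with the group mean and SD (bars, n = 3), each panel spanning 3 log2 units and SAMR1-CR replicate 3 marked with its number. In Prc1, Cenpa, Nusap1, Plk1, Aurkb and Kif2c that sample lies near the SAMP8 points while the other SAMR1 points lie above them, and Ncapd2 is level over all groups.

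Of the 6 detected spindle motors and assembly factors 5 were lower with AL serum and 2 with CR serum (3.79% and 1.3% of all genes). Kif22, Kif2c and Kif4 passed the detection rule only through SAMR1, and of the 3 others, 2 were lower with AL serum and 1 with CR serum. Nusap1, which bundles microtubules near the chromosomes, measured 1.78, 1.56 and 1.79 in SAMR1-AL, 1.66, 2.03 and 0.92 in SAMR1-CR, 0.60, 0.75 and 0.56 in SAMP8-AL, and 0.76, 0.57 and 0.57 in SAMP8-CR. The strains did not overlap with either serum. Nusap1 was 2.11-fold lower with AL serum (-1.07 ± 0.22, limma adjusted p = 0.00874) and 1.87-fold lower with CR serum (-0.90 ± 0.22, adjusted p = 0.0388). Tpx2, the activator of Aurka on the spindle, measured 0.82, 1.16 and 1.18 in SAMR1-AL, 0.76, 1.14 and 0.24 in SAMR1-CR, -0.08, 0.08 and -0.08 in SAMP8-AL, and 0.11, 0.01 and 0.02 in SAMP8-CR. All SAMR1 samples were above all SAMP8 samples, with a 2.11-fold difference for AL serum (adjusted p = 0.00413) and a 1.59-fold difference for CR serum (adjusted p = 0.0832).

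Kif2c, the kinesin that takes microtubules apart at the kinetochore, measured -0.13, 0.15 and 0.04 in SAMR1-AL, -0.16, 0.16 and -0.56 in SAMR1-CR, -0.82, -0.75 and -0.72 in SAMP8-AL, and -0.84, -0.61 and -0.92 in SAMP8-CR. Kif2c was detected on no SAMP8 array and was at least 1.48-fold lower with AL serum (limma adjusted p = 0.00486) and at least 1.31-fold lower with CR serum (adjusted p = 0.0357). Kif4, the chromokinesin of the spindle midzone, measured -0.20, 0.01 and 0.05 in SAMR1-AL, -0.04, 0.08 and -0.74 in SAMR1-CR, -0.72, -0.50 and -0.76 in SAMP8-AL, and -0.74, -0.73 and -0.75 in SAMP8-CR. The third SAMR1-CR value fell among those of SAMP8-CR. Kif4 was 1.52-fold lower with AL serum (-0.61 ± 0.16, adjusted p = 0.0307). It was undetected in SAMP8-CR, where its mean was at least 1.26-fold lower, a difference that did not pass the threshold (adjusted p = 0.121).

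Kif22, a kinesin that pushes chromosome arms, measured -0.23, -0.26 and -0.43 in SAMR1-AL, -0.44, 0.12 and -0.76 in SAMR1-CR, -1.06, -0.89 and -0.95 in SAMP8-AL, and -0.47, -0.71 and -0.74 in SAMP8-CR. It was detected on no SAMP8-AL array and was at least 1.18-fold lower with AL serum (limma adjusted p = 0.0209), while with CR serum the strains overlapped (-0.28 ± 0.16, adjusted p = 0.436). Tacc3, a spindle stabiliser, differed by -0.29 ± 0.10 over both sera and did not pass the threshold (adjusted p = 0.0642). Kif11 and Hmmr had no detected probe.

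At the central spindle, Prc1 and Kif23 were lower in SAMP8 over both sera and Anln was not called. Prc1, which bundles the microtubules of the midzone where the cleavage furrow forms, measured 1.98, 1.86 and 2.46 in SAMR1-AL, 2.03, 2.56 and 0.75 in SAMR1-CR, 0.60, 0.84 and 0.58 in SAMP8-AL, and 0.71, 0.61 and 0.68 in SAMP8-CR. Only the third SAMR1-CR sample reached the SAMP8 range. In the main fit Prc1 had the largest difference of the 26 genes, 2.69-fold lower with AL serum (-1.43 ± 0.33, limma adjusted p = 0.0158) and 2.17-fold lower with CR serum (-1.12 ± 0.33, adjusted p = 0.0904). Without SAMR1-CR replicate 3 it was 3.10-fold lower with CR serum. Sizes and order changed with neqc background correction, where Birc5 was 4.23-fold and Prc1 3.43-fold lower with AL serum. Kif23, the motor that works with Prc1 at the midzone, differed by -0.71 ± 0.20 over both sera (adjusted p = 0.0247).

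Anln, the anillin scaffold of the cleavage furrow, measured 1.5005, 2.19 and 2.56 in SAMR1-AL, 1.37, 2.44 and 0.96 in SAMR1-CR, 1.73, 1.33 and 1.22 in SAMP8-AL, and 1.28, 1.08 and 1.04 in SAMP8-CR. The strains overlapped with both sera (-0.56 ± 0.23 over both, limma adjusted p = 0.110), and raw intensities ran from 278 to 782. Ect2 and Racgap1 had no detected probe, and Kif20a is not analysed here.

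Among the genes of chromosome structure, 2 of 5 were lower over both sera (6.37% of all genes). Top2a, the topoisomerase that untangles sister chromatids, differed by -0.68 ± 0.17 (limma adjusted p = 0.0164). Ncaph, the kleisin of condensin I, measured -0.29, -0.15 and -0.37 in SAMR1-AL, -0.32, 0.01 and -0.68 in SAMR1-CR, -0.72, -0.46 and -0.84 in SAMP8-AL, and -0.93, -0.71 and -0.73 in SAMP8-CR. The strains did not overlap with either serum. Ncaph passed the detection rule only through SAMR1. It differed by -0.41 ± 0.14 with AL serum (adjusted p = 0.0863). With CR serum, where no SAMP8 array detected it, its mean was at least 1.18-fold lower (adjusted p = 0.110). Neither difference passed the threshold, and the adjusted p over both sera was 0.0101.

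None of the other 3 condensin genes was called. Smc2, an ATPase shared by both condensins, measured -0.47, -0.47 and -0.36 in SAMR1-AL, -0.54, -0.48 and -0.53 in SAMR1-CR, -0.52, -0.51 and -0.40 in SAMP8-AL, and -0.52, -0.58 and -0.49 in SAMP8-CR. All 12 values lay within 0.22 on the log2 scale, and the difference over both sera was -0.03 ± 0.05 (limma adjusted p = 0.739). Smc2 was detected on 8 of the 12 arrays, and its raw intensity ran from 97.73 to 133.7, near the detection limit. Its partner Smc4 differed by 0.02 ± 0.07 (adjusted p = 0.857), with a sign that turned under several settings. Ncapd2, a condensin I subunit, had the narrowest range of the 26 genes, 0.16, and differed by -0.06 ± 0.05 (adjusted p = 0.491). Raw intensities were also low for Smc4 (111.5 to 177.7) and Ncapd2 (113.9 to 168.0). At such signal a difference in these 3 genes could go unseen. Mki67, the proliferation antigen of the chromosome surface, is not analysed here.

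Fbxo5, the inhibitor of the anaphase-promoting complex, and Pttg1, securin, complete the 17 genes whose probes did not pass the detection rule. Of these, 12 were detected on no array, and the most detected was Ccna2, on 3 arrays. Without a detection filter 43 genes could be fitted, of which 15 were lower in SAMP8 with AL serum, 2 with CR serum and 23 over both sera (1.55%, 0.551% and 3.13% of all genes), with 40 of 43 below 0 over both sera. Espl1, with Ccnb1, Cenpf, Kif20a and Mki67, has no named probe here.

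Serum changed none of the 26 genes past the threshold in either strain, where 0.0% of all detected genes passed it in any of the 4 serum and interaction tests. At an unadjusted p under 0.05 the 26 genes held 1 in SAMR1 (2.93% of all genes), 0 in SAMP8 (4.92%), 0 for serum over both strains (3.3%) and 1 for the interaction (3.58%). The medians were -0.19 for R1CR-R1AL, -0.0045 for P8CR-P8AL, -0.09 for serum over both strains and 0.19 for the interaction. The first of these rested on SAMR1-CR replicate 3, since without that sample it was 0.08 and the interaction median was -0.11.

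In SAMR1 the smallest p values were those of Ube2c (-0.33, limma's unadjusted p = 0.0262, adjusted p = 0.999) and Aurkb (-0.35, adjusted p = 0.999). In SAMP8 they were those of Kif22 and Ube2c (adjusted p = 0.818 for both), which were detected on no SAMP8-AL array, Ube2c also on no SAMP8-CR array, so that no size is given. Over both strains Anln (-0.39, adjusted p = 0.970) and Smc2 (-0.06, adjusted p = 0.970) came first, and for the interaction Ube2c and Kif22 (adjusted p = 0.965 for both), on the same undetected values. In SAMR1 the values of Ube2c and Aurkb overlapped between sera, and so did those of Anln in both strains, while all 3 SAMR1-CR values of Smc2 lay just below those of SAMR1-AL. With the replicate number as a block within each strain, 0 of the 26 genes passed in any of the 4 tests. Of all genes, 0.0124% passed with this block in SAMR1 and over both strains, and 0.0% in SAMP8 and for the interaction.

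Genes with neighbouring roles gave a frame for these values. Of 34 further detected mitosis genes 12 were lower in SAMP8 with AL serum, 1 with CR serum and 15 over both sera (3.79%, 1.3% and 6.37% of all genes), 0 higher, with a median of -0.16 over both sera. Of these 34, 12 were kept only through SAMR1, and of the 22 others 2, 0 and 3 were lower. The smallest p values were those of Ckap2l, a spindle protein (-0.54 ± 0.08, limma adjusted p = 0.000468), Cep55, of the abscission machinery (adjusted p = 0.000919), the kinesin Kif18b (adjusted p = 0.00176) and the kinetochore protein Cenpq (-0.83 ± 0.15, adjusted p = 0.00212). Cep55 and Kif18b were detected in no SAMP8-AL sample and were at least 1.27-fold and at least 1.21-fold lower there. Of the 9 detected cohesin genes 1 was called, Stag1, higher in SAMP8 with AL serum and over both sera (0.44 ± 0.11, adjusted p = 0.0160), where 5.18% and 8.69% of all genes were higher. Of 12 detected transcription factors of mitotic genes 0 were called, the smallest p being that of Rbl1, a DREAM pocket protein (-0.34 ± 0.11, adjusted p = 0.0541). Foxm1 and Mybl2, activators of mitotic genes, were not among the detected genes.

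Of the 30 detected DNA replication genes 11 were lower in SAMP8 with AL serum, 1 with CR serum and 15 over both sera (3.79%, 1.3% and 6.37% of all genes), 0 higher, with a median of -0.40 over both sera. Of the 26 kept through a SAMP8 group as well, 8, 0 and 11 were lower. The lower genes include Pole, a polymerase subunit (limma adjusted p = 0.00234, at least 1.21-fold lower with AL serum), the origin licensing factors Cdt1 (-0.72 ± 0.14, adjusted p = 0.00353) and Cdc6 (-0.40 ± 0.08, adjusted p = 0.00393), and Mcm4 of the replicative helicase (-0.54 ± 0.11, adjusted p = 0.00463). The sample medians ran from 0.54 to 0.95 in SAMR1-AL, from 0.07 to 0.96 in SAMR1-CR with the lowest in replicate 3, and from -0.05 to 0.22 in SAMP8. SAMR1-CR replicate 3 was therefore low for both groups of genes.

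**Figure D4:**
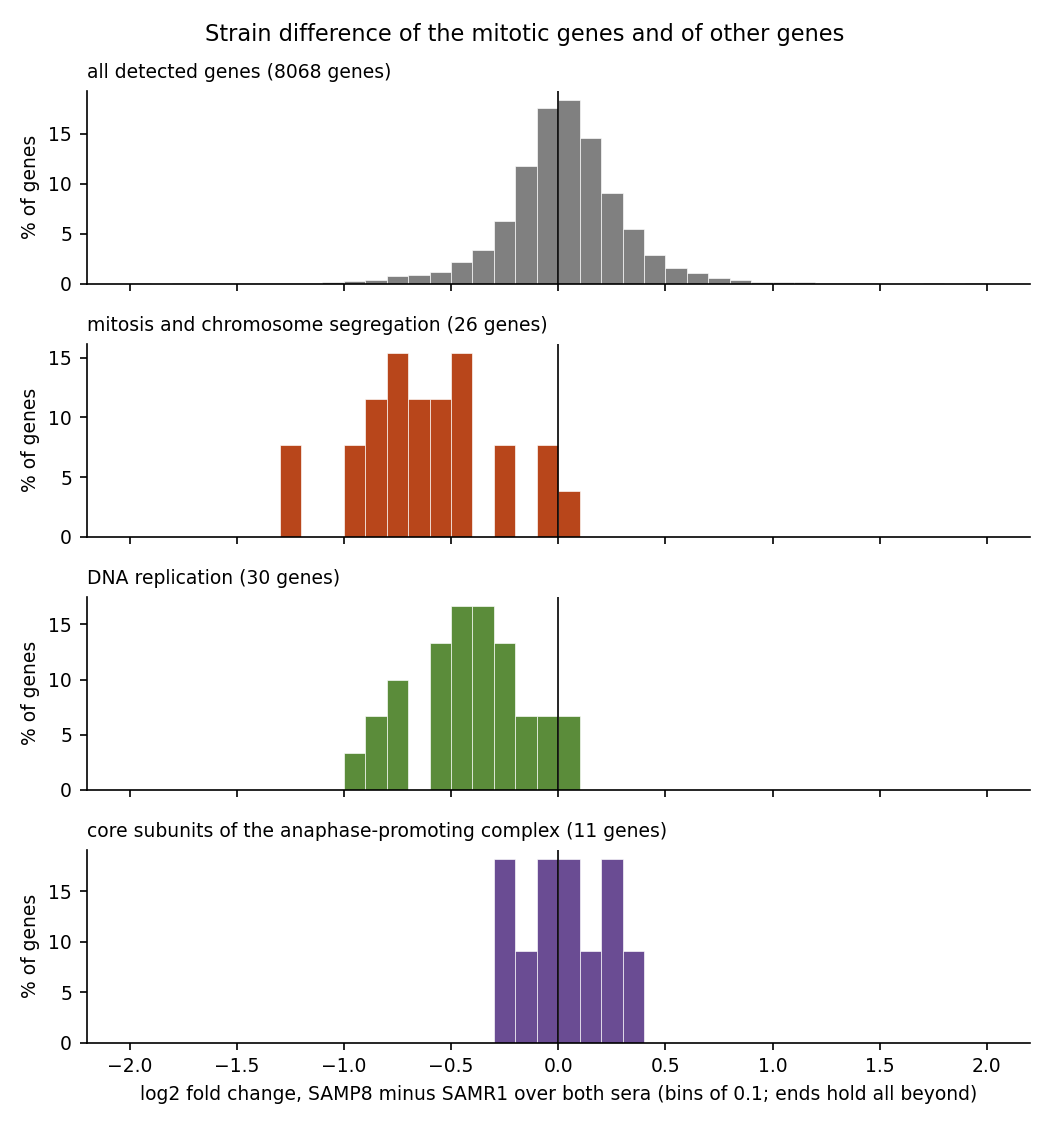
Share of genes (%) in bins of 0.1 of the log2 fold change of SAMP8 over SAMR1, both sera together, for all 8068 detected genes, the 26 mitotic genes, 30 DNA replication genes and 11 core subunits of the anaphase-promoting complex. The mitotic genes centre on -0.66 and the replication genes on -0.40, while the core subunits and all genes centre near 0.

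Of the 5 detected G1 cyclins and kinases Ccnd1, cyclin D1, was lower in SAMP8 over both sera (-0.87 ± 0.26, limma adjusted p = 0.0379). Of the 6 detected cyclin-dependent kinase inhibitors 2 were called, in opposite directions and in all 3 strain comparisons. Over both sera 6.37% of all genes were lower and 8.69% higher. Cdkn2a, which encodes p16 and p19Arf, averaged 1.68 in SAMR1-AL, 2.09 in SAMR1-CR, -0.27 in SAMP8-AL and -0.11 in SAMP8-CR, 4.22-fold lower over both sera (adjusted p = 1.69e-07). Its neighbour Cdkn2b, which encodes p15, averaged 2.61, 2.91, 3.69 and 3.88 in the same order, 2.04-fold higher in SAMP8 (adjusted p = 0.000245). Both had SAMR1 levels in SAMR1-CR replicate 3, 2.09 for Cdkn2a and 2.89 for Cdkn2b.

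Markers of microglia, which can divide in such cultures, moved with strain. Of 12 detected microglia and macrophage markers 6 were lower in SAMP8 with AL serum, 2 with CR serum and 7 over both sera (3.79%, 1.3% and 6.37% of all genes). Among them were Cd14 (-2.16 ± 0.17, limma adjusted p = 1.76e-06), Trem2 (-1.24 ± 0.18, adjusted p = 0.000466) and Tyrobp (-1.14 ± 0.20, adjusted p = 0.00180). Fcer1g was higher, at least 8.26-fold with AL serum and at least 12.5-fold with CR serum, being detected on no SAMR1 array. The summed raw intensity of the 12 was 17432 to 28545 in SAMR1-AL, 20461 to 46648 in SAMR1-CR, 8694.7 to 19734 in SAMP8-AL and 15436 to 23892 in SAMP8-CR, while Itgam and P2ry12 did not pass the detection rule and Cd68 and Csf1r had no named probe. SAMR1-CR replicate 3 had a microglial median of 2.43, above the 1.02 to 2.12 of the 6 SAMP8 samples, while its mitotic median was below theirs. The part of microglia in the strain difference of the mitotic genes was not tested.

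**Figure D5:**
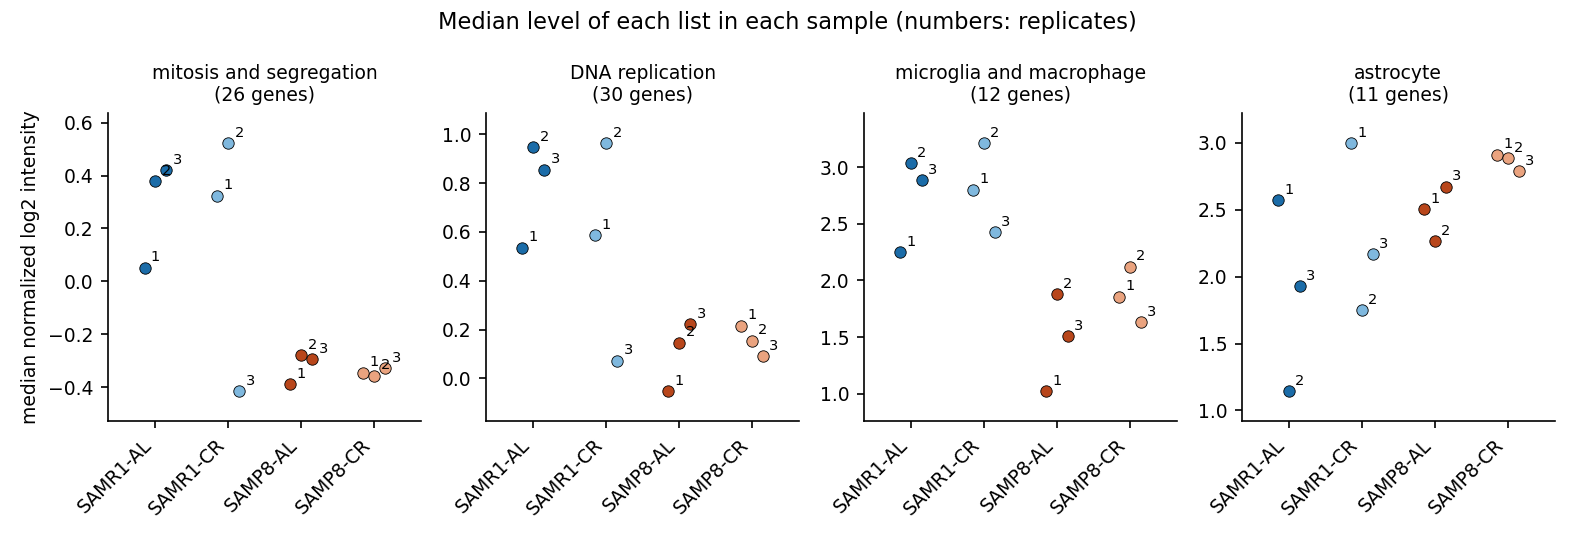
Median normalized log2 intensity in each of the 12 samples (points, numbered by replicate) of the 26 mitotic genes, 30 DNA replication genes, 12 microglia and macrophage markers and 11 astrocyte markers. SAMR1-CR replicate 3 lies with SAMP8 in the first 2 panels, at -0.42 and 0.07, and above SAMP8 in the microglia panel, at 2.43.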

How the data were processed

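RNA of 12 astrocyte samples was hybridised to Illumina MouseRef-8 arrays. The authors deposited raw mean bead intensity without background correction, detection p-values, and Z scores on a log10 basis. The score was not used in the tests. Intensities were taken to log2, Z-normalized within each array over 24613 probes and rescaled by the arrays' mean SD. A probe was kept if any group had a detection p under 0.05 on each of its arrays (10935 probes, 8068 genes, each by its brightest probe). Groups came from the labels. Differences were fitted over the 12 samples with limma 3.58.1 in R 4.3.3 (lmFit, eBayes with variance trend), with Benjamini-Hochberg adjustment over all kept probes and a threshold of 0.05, after a test on simulated data. A difference against a group in which no array detected the probe is given as a lower bound, taken against the lowest detected signal. It bounds the difference of the group means and does not count the spread between samples. The p-value beside a bound is that of the measured difference, undetected values included, and does not test the bound. Replicate numbers, which the labels share between sera, were not used in the main fit. They were set as a block over all groups, or within each strain, as alternatives. Deviations of same-numbered samples correlated between sera at 0.12 to 0.44 in SAMP8 and 0.09 to 0.57 in SAMR1. Promoter windows came from RefSeq (GRCm38.p6). Values of every sample are given for the 14 called genes with the smallest p, for the gene with the smallest strain p in each role, and for the 2 with the smallest p in each serum and interaction test. Of other lists, up to 4 called genes are named, or the 1 with the smallest p. The members and gene lists were chosen with earlier results of these data known. Array number and intensity limit the precision.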

Additional observations from a re-analysis of the deposited data

How the results depend on the processing

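The direction over both sera held under every setting tried except for Smc4, whose difference near 0 ran from -0.0147 to 0.0629 on leaving out 1 sample and turned to -0.0096 with quantile normalization, -0.0132 with neqc background correction, -0.0159 in 10 samples (without replicate 1 of SAMR1-AL and SAMP8-AL), and -0.0094, -0.0147 and -0.0016 without SAMR1-AL replicate 1, SAMR1-CR replicate 3 and SAMP8-CR replicate 3. The counts of lower genes moved more, and the cause was not tested. With AL serum the count of 14 became 6 with the array set as a block, 0 in the first array set alone, 1 there without SAMR1-CR replicate 3 (0.434%), 5 in 10 samples (1.73% of all genes lower) and 22 by the methods' Z ratio of at least 1.5 (9.26%), and ran from 6 to 21 when 1 sample was left out (1.47% to 4.97%), against 3.79% for the 14. With CR serum the count of 2 became 1 with quantile normalization and in 10 samples, 0 without a variance trend, with the set block, in the first set alone and there without SAMR1-CR replicate 3, 18 with the set block without that sample (2.21% of all genes) and 19 by Z ratio (8.3%), and ran from 0 to 18 on leaving out 1 sample (0.682% to 1.72%), against 1.3% for the 2. Over both sera it was 13 with the set block, 2 in the first set (4.08% and 2.05%), and 18 to 23 on leaving out 1 sample (4.71% to 7.35%), against 6.37% for the 20. By Z ratio, which has no replicate error, 12 genes were lower for R1CR-R1AL (8.12% of all genes), 2 passed for P8CR-P8AL, 1 lower (9.71%) and 1 higher (15.3%), 7 were lower for serum (8.35%) and 7 higher for the interaction (12.5%). Replicate 1 of SAMR1-AL and SAMP8-AL was left out in 1 setting because the study's own gene table has no columns for it. The combinations without SAMR1-CR replicate 3 were chosen after seeing the data.

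Medians were -1.38, -0.99 and -1.21 with neqc for AL serum, CR serum and both, and -0.45, -0.28 and -0.43 without a filter on dim probes. Without SAMR1-CR replicate 3 the CR median was -0.84 in the first set and -0.92 with the set block, the R1CR-R1AL median 0.079 in both, and the interaction median -0.11 with the block. On leaving out 1 sample the medians ran from -0.87 to -0.65 (AL), -0.86 to -0.34 (CR), -0.40 to 0.079 (R1CR-R1AL), -0.051 to 0.034 (P8CR-P8AL), -0.79 to -0.52 (both sera), -0.21 to 0.018 (serum) and -0.11 to 0.43 (interaction). For single genes, 1073 of 1233 values kept direction and side of the threshold, 146 lost the threshold, 8 gained it and 6 reversed.

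Over all 18 same-numbered pairs, deviations correlated from -0.25 to 0.57 (median 0.12, other pairs -0.04), and 7 of 12 samples correlated best with their own number. Between sera within a strain the correlations were 0.57, 0.09 and 0.13 in SAMR1 and 0.38, 0.44 and 0.12 in SAMP8, where replicates 2 and 3 also share an array set. With the replicate number as a block in all groups, 16 genes were lower with AL serum, 4 with CR serum and 20 over both sera (5.03%, 2.11% and 7.64% of all genes). With the block within each strain, chosen after seeing the data, 0 of the 26 passed in the serum and interaction tests, with 2 in SAMR1, 2 in SAMP8, 1 over both strains and 2 for the interaction at an unadjusted limma p under 0.05 (5.7%, 9.35%, 7.18% and 7.05% of all genes). Neither block changed a call of the 26 genes in these serum and interaction tests. Of all genes, 0.0124% passed with the block within each strain in SAMR1 and over both strains, and 0.0% in SAMP8 and for the interaction. Array signal near the detection limit leaves Aurka, Kif2c and Ube2c with bounds in SAMP8.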

Other observations

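Other cell type markers also differed between the strains, where 8.69% of all detected genes were higher in SAMP8 over both sera and 6.37% lower. Of 11 detected astrocyte markers 4 were higher in SAMP8 over both sera, Slc4a4, a bicarbonate transporter (log2 fold change 1.30 ± 0.14, limma adjusted p = 2.79e-05), Glul, glutamine synthetase (0.78 ± 0.18), Aldoc (0.86 ± 0.23) and the water channel Aqp4 (0.77 ± 0.25), and 1 was lower, Ntsr2 (-0.64 ± 0.19). Of 5 detected oligodendrocyte lineage markers Olig2 and Cnp were higher, of 9 fibroblast and meningeal markers Col1a2 and Pdgfrb, and of 4 neuronal markers Syt1, while neither of the 2 detected endothelial markers was called. The relation of these differences to the levels of the mitotic genes was not tested.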
